A study of Mus musculus with 2 samples.

Results

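The mir-99/100, let-7 and mir-125 genes lie side by side in 3 paralogous clusters of the mouse genome, and their levels were read from small RNA sequencing of skeletal muscle. The 9 genes were chosen by name from 2202 counted miRNA genes: Mir99a, Mirlet7c-1 and Mir125b-2 on chromosome 16, Mir100, Mirlet7a-2 and Mir125b-1 on chromosome 9, and Mir99b, Mirlet7e and Mir125a on chromosome 17. The tissue was gastrocnemius, a calf muscle of the hind limb, from female mice aged 4 days. The mice were B6CASTF1/J, a first-generation cross of the C57BL/6J and CAST/EiJ strains, supplied by The Jackson Laboratory and with no treatment named in the labels. There was 1 group of 2 libraries, which the labels give as biological replicates 1 and 2 from separately numbered females that share 1 donor entry, with RNA below 30 bases in length. With 1 group no condition could be set against another, so the results are levels and the spread between these libraries.

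A miRNA gene is transcribed as a long primary RNA, from which a hairpin and then a mature strand of the 5′ or 3′ arm are cut. Bases 2 to 8 of the mature strand, the seed, pair with target messages, so miRNAs of one seed are taken to have overlapping targets. In Caenorhabditis elegans, let-7 and lin-4, the relative of mir-125, time development, and in vertebrates let-7 accumulates as tissues mature while the RNA-binding protein LIN28 blocks its processing. In mammals, miR-99/100 is known to act on the growth pathway of MTOR and IGF1R, and in mouse myoblasts miR-125b is known to act on Igf2.

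The mature 5′ arms below carry the family identity, because the 9 genes fall into 3 seed groups with 1 gene of each seed in every cluster. Seeds are in capitals, and the sequences are RefSeq entries on GRCm38.p6.
miR-99a-5p: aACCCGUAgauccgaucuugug
miR-100-5p: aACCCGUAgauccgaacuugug
miR-99b-5p: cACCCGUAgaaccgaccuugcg
let-7a-5p: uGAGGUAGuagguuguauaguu
let-7c-5p: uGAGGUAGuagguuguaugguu
let-7e-5p: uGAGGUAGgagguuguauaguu
miR-125b-5p: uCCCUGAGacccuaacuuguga
miR-125a-5p: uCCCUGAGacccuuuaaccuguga

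Within a seed group the arms differ by few bases. Counted from the 5′ end, miR-99a-5p and miR-100-5p differ by 1 substitution, U16A, and miR-99a-5p and miR-99b-5p by 4, A1C, U11A, U16C and U21C. The let-7a-5p and let-7c-5p arms differ by A19G, and let-7a-5p and let-7e-5p by U9G. Between miR-125b-5p (22 bases) and miR-125a-5p (24 bases) the edit distance is 3. Mir125b-1 and Mir125b-2 give the same 5′ arm.

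The 9 genes differ in whether their 5′ arm belongs to them alone. Among the counted genes, the arms of Mir99a, Mir100, Mir99b, Mirlet7e and Mir125a each occur in 1 gene. The arm of Mirlet7c-1 also occurs in Mirlet7c-2, that of Mirlet7a-2 in Mirlet7a-1, and that of Mir125b-1 in Mir125b-2. The deposited tables keep reads that match several places in a line of their own, outside every gene, so a read that covers no more than a shared arm would stand there and not in a gene. The hairpins below show this, with the longest stretch shared with another counted gene in capitals.
Mirlet7c-1: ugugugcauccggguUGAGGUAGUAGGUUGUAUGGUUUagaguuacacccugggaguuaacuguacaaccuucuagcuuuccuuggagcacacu
Mirlet7a-2: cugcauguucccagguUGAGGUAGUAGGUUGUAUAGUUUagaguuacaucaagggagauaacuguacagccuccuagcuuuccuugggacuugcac
Mir125b-1: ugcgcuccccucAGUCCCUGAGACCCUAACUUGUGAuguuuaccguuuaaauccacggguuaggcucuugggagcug

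The shared stretch is 23 bases in Mirlet7c-1 (hairpin positions 16 to 38) and in Mirlet7a-2 (17 to 39), and 24 bases in Mir125b-1 (13 to 36), and each covers the whole 5′ arm. Mirlet7a-1 and Mirlet7c-2, the other genes with these let-7 5′ arms, also share a 3′ arm with each other. The 3′ arms of Mirlet7c-1, Mirlet7a-2, Mir125b-1 and Mir125b-2 occur in 1 counted gene each, again with bases 2 to 8 in capitals.
let-7c-1-3p: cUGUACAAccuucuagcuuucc
let-7a-2-3p: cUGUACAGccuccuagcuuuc
miR-125b-1-3p: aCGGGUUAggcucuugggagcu
miR-125b-2-3p: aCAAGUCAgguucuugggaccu

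All 9 hairpins lie on the plus strand, placed here on mm10 by the GENCODE M21 annotation, whose gene identifiers the count tables use. In the chromosome 16 cluster, Mir99a (chr16:77598936-77599000, ENSMUSG00000065530.1), Mirlet7c-1 (chr16:77599657-77599750, ENSMUSG00000065557.3) and Mir125b-2 (chr16:77646273-77646343, ENSMUSG00000065472.1) lie in an intron of the noncoding host gene Mir99ahg. Mir125b-2 also overlaps an exon of C130023A14Rik, a transcript still to be experimentally classed. In the chromosome 9 cluster, Mir100 (chr9:41531425-41531504, ENSMUSG00000093011.1), Mirlet7a-2 (chr9:41536716-41536811, ENSMUSG00000092770.1) and Mir125b-1 (chr9:41581926-41582002, ENSMUSG00000093354.1) lie in introns of the noncoding genes 3110039I08Rik and Gm49317. Mir125b-1 also overlaps an exon of Gm28119, and Mir100 lies opposite an exon of Gm48742. In the chromosome 17 cluster, Mir99b (chr17:17830188-17830257, ENSMUSG00000065396.1) and Mirlet7e (chr17:17830352-17830444, ENSMUSG00000105758.1) lie in an intron of Spaca6, a protein-coding gene, and Mir125a (chr17:17830812-17830879, ENSMUSG00000065479.2) overlaps one of its exons. The chromosome 16 and 9 clusters span 47.4 kb and 50.6 kb, whereas the chromosome 17 cluster spans 692 bases.

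Library 2 held 8487769 reads and library 1 held 10426665, of which 4336759 and 5569392 were assigned to a gene on its own strand. Levels are own-strand counts scaled to the library's gene counts (CPM), so 3 counts, the limit that a count of 0 allows, equal 0.692 CPM in library 2 and 0.539 CPM in library 1. Detection meant at least 2 CPM in each library, which 335 genes reached, among them all 9 cluster genes. As a check of the tissue label, the skeletal muscle gene Mir206 had the highest level of all counted genes. Its level was 119323 CPM in library 2 and 129336 CPM in library 1. Of the listed muscle genes 8 of 9 were detected, against 335 of all 2202 counted genes. Among the 8, Mir1a-1 stood near the limit, at 2.075 CPM in library 2 and 2.334 CPM in library 1. Of 8 neural genes, 2 were detected, with Mir338 at 328 CPM in library 2 and 346 CPM in library 1. Mir124a-2, Mir124a-3 and Mir9-2 had no count. Arms shared within these lists were not searched for, so low counts of the neural genes cannot check the label.

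The cluster genes together held 2.67% of gene counts in library 2 and 3.23% in library 1, or 2.95% ± 0.395 (SD, n = 2). The Mir99a cluster held 61.7% ± 1.36 of these counts, the Mir99b cluster 25.6% ± 1.56 and the Mir100 cluster 12.7% ± 0.205. By family, the mir-99/100 genes held 2.31% ± 0.385 of all gene counts, the let-7 genes 0.350% ± 0.0266 and the mir-125 genes 0.288% ± 0.0368. Reads that match several places, kept outside every gene, are in none of these shares. A level in whole muscle cannot tell apart fewer cells of a type from less RNA per cell. A small RNA read covers most of a mature strand, and counts were not divided by hairpin length. Dividing by it (65 to 96 bases) exchanged the places of Mirlet7e and Mir100 and left the other 7 places as they were.

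**Figure D1:**
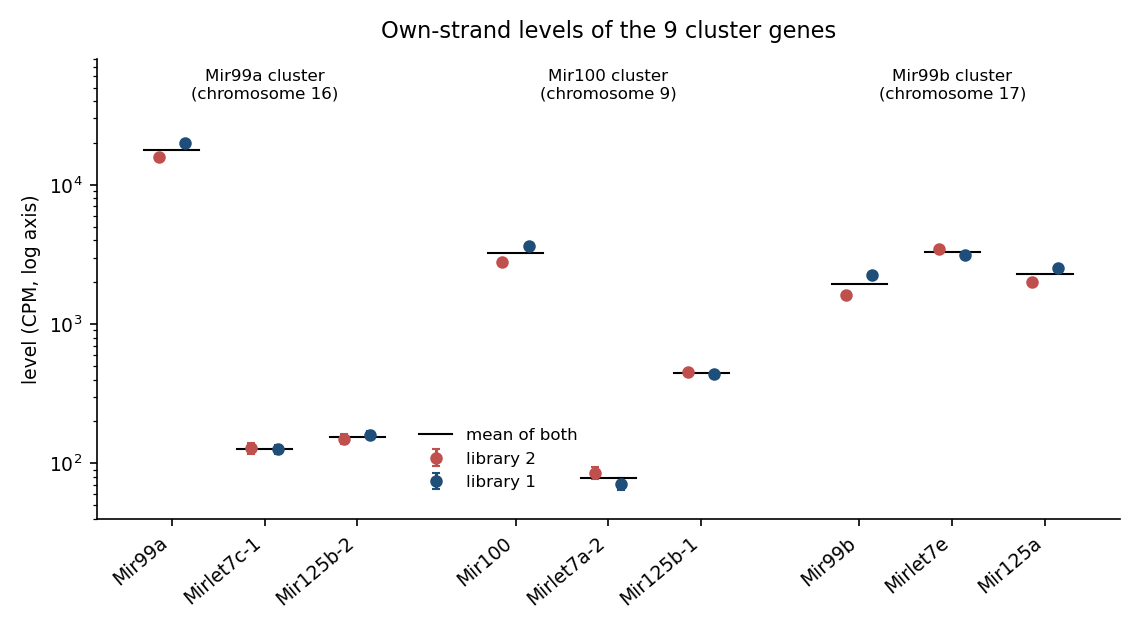
Own-strand level of each cluster gene (CPM, log axis) in library 2 and library 1, with the mean of both as a line. Bars, where wider than the point, are exact 95% Poisson intervals. Mir99a stands above every other gene at 15916 and 19922 CPM, and Mirlet7c-1, Mirlet7a-2, Mir125b-2 and Mir125b-1 lie between 71.3 and 453 CPM.

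The mir-99/100 genes were led by Mir99a. Mir99a had 15916 CPM in library 2 and 19922 CPM in library 1, a mean of 17919 ± 2832 (SD, n = 2) that ranked 15 among all counted genes. Mir100 had 2803 CPM in library 2 and 3624 CPM in library 1 (3214 ± 581). Mir99b had 1627 CPM in library 2 and 2248 CPM in library 1 (1938 ± 439). All 3 genes were lower in library 2, and the ranges of Mir99a, Mir100 and Mir99b did not overlap one another.

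Within each library, the ratio of counts of a pair of genes does not depend on scaling to depth. Mir99a over Mir100 was 5.68 (95% counting interval 5.57 to 5.79) in library 2 and 5.50 (5.415 to 5.58) in library 1, so the intervals overlapped. Mir99a over Mir99b was 9.78 in library 2 and 8.86 in library 1, and Mir100 over Mir99b was 1.72 and 1.61. Mir99a made up 77.7% ± 0.701 (SD, n = 2) of the counts of this family. No other counted gene had a RefSeq mature arm with the seed ACCCGUA. These 3 arms differ at few positions, and how reads with a mismatch were assigned is not given in the sources used here.

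Of the let-7 genes in the clusters, Mirlet7e was the highest. Mirlet7e had 3477 CPM in library 2 and 3117 CPM in library 1 (3297 ± 254). Mirlet7c-1 had 128 CPM in library 2 and 126 CPM in library 1 (127 ± 1.49). Mirlet7a-2 had 85.1 CPM in library 2 and 71.3 CPM in library 1 (78.2 ± 9.76), the lowest of the 9 genes. Mirlet7e thus gave 94.1% ± 0.123 (SD, n = 2) of the let-7 counts of the clusters, and the 3 genes' ranges did not overlap. Mirlet7e over Mirlet7c-1 was 27.2 (25.0 to 29.6) in library 2 and 24.8 (23.0 to 26.75) in library 1. Mirlet7c-1 and Mirlet7a-2 share their 5′ arm with another gene, so their levels and this ratio are uncertain.

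Mirlet7e lies opposite Gm25927, a counted miRNA gene on the minus strand. Mirlet7e had 15079 own-strand counts in library 2 and 17361 in library 1, but 0 in both libraries in the column that ignores strand. The line for ambiguous reads held 513662 reads in library 2 and 700483 in library 1 in that column, and 0 in both in the own-strand column. The own-strand counts of Mirlet7e, 15079 and 17361, also stand on the opposite strand of Gm25927, which had 0 counts of its own in both libraries.

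The mir-125 genes followed the same order in both libraries. Mir125a had 2020 CPM in library 2 and 2543 CPM in library 1 (2282 ± 369.5). Mir125b-1 had 453 CPM in library 2 and 440 CPM in library 1 (446.5 ± 9.33). Mir125b-2 had 149.7 CPM in library 2 and 161 CPM in library 1 (155 ± 8.07). Mir125a over Mir125b-1 was 4.46 (4.25 to 4.69) in library 2 and 5.78 (5.54 to 6.04) in library 1, and these intervals did not overlap. Mir125b-1 over Mir125b-2 was 3.03 (2.77 to 3.31) in library 2 and 2.73 (2.53 to 2.95) in library 1, which overlapped. Both Mir125b genes share their 5′ arm, so these ratios hold for counted reads only.

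In order of mean level the genes ran Mir99a, Mirlet7e, Mir100, Mir125a, Mir99b, Mir125b-1, Mir125b-2, Mirlet7c-1 and Mirlet7a-2. Of the 8 neighbouring pairs, Mirlet7e with Mir100 and Mir125a with Mir99b overlapped between libraries, and the other 6 did not. Mirlet7e was the higher of its pair in library 2 and Mir100 in library 1. The gene closest to Mir99a in mean log2 CPM over the 2 libraries was Mir21a at 16868 ± 766 CPM. Those closest to Mir100 and Mirlet7e were Mir744 at 3153 ± 409 CPM and Mir369 at 3338 ± 55.4 CPM (SD, n = 2 each).

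Neighbours in the genome had very unequal levels in 2 of the clusters. Mir99a and Mirlet7c-1 lie 656 bases apart, yet Mir99a had 124 times the counts of Mirlet7c-1 in library 2 and 158 times in library 1. Mir100 had 32.9 times the counts of Mirlet7a-2 in library 2 and 50.8 times in library 1. In the chromosome 17 cluster, where all 3 arms occur in 1 counted gene each, the highest gene had only 2.14 times the counts of the lowest in library 2 and 1.39 times in library 1. In each of the other 2 clusters the let-7 and mir-125 genes have a shared 5′ arm and the mir-99/100 gene does not.

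**Figure D2:**
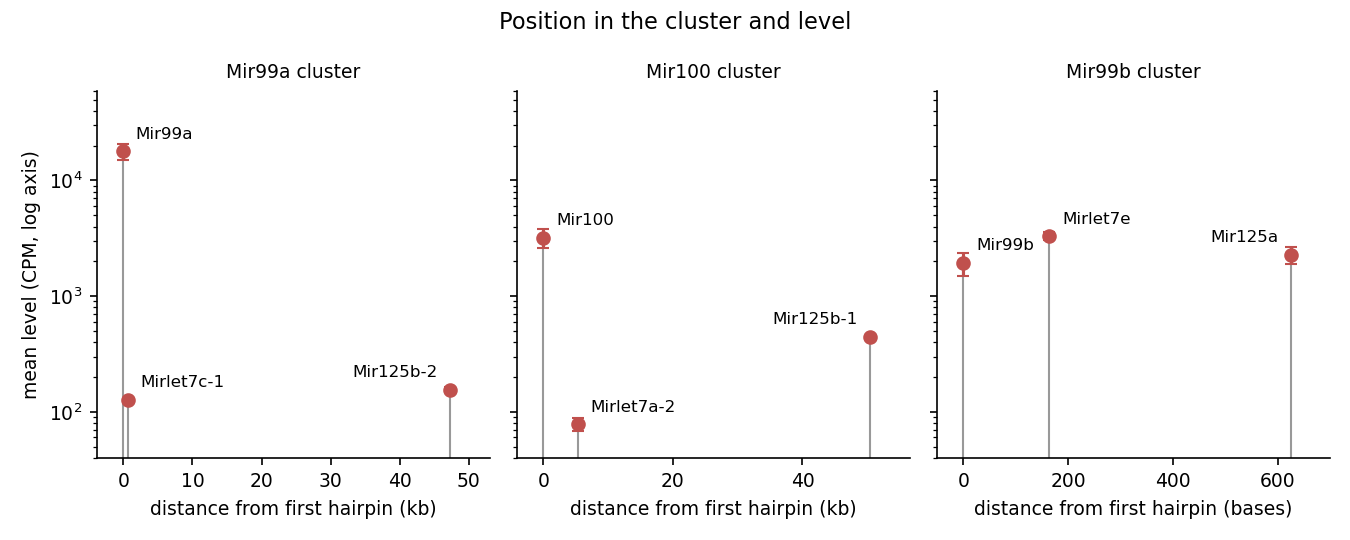
Mean level of each cluster gene (CPM, log axis, bars are SD over 2 libraries) against its distance from the first hairpin of its cluster, in kb for the Mir99a and Mir100 clusters and in bases for the Mir99b cluster. The high to low fold averages 141 in the Mir99a cluster, 41.9 in the Mir100 cluster and 1.76 in the Mir99b cluster.

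The genes' levels split by whether the 5′ arm was shared. The 5 genes whose arm occurs in 1 counted gene ranged from Mir99b at 1938 CPM to Mir99a at 17919 CPM in mean level. The 4 genes whose arm occurs in 2 counted genes ranged from Mirlet7a-2 at 78.2 CPM to Mir125b-1 at 446.5 CPM, and the ranges did not overlap in either library. The multimapping line held 37.6% of reads in library 2 and 36.9% in library 1, and cannot be divided among genes from these tables. Its part in the low levels of the 4 genes was not tested.

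Detected genes of the same seeds outside the clusters also differed in level by arm, and the undetected ones had no count. The part of shared arms in these levels was not tested, and a gene without a count cannot inform on it. The seed relatives outside the clusters were 11 genes with the let-7 seed and 3 with the mir-125 seed, of which 9 and 1 were detected. Of these 14 genes, 10 have a seed-bearing arm found in 1 counted gene, and 4 of those 10, Mir1961, Mir7k, Mir6367 and Mir6394, had 0 CPM in both libraries, below every gene with a shared arm. The detected ones with an arm in 1 counted gene ranged from Mir98 at 2944 CPM to Mirlet7i at 55909 CPM in mean level (6 genes). Those with an arm in 2 counted genes ranged from Mirlet7f-1 at 140 CPM to Mirlet7f-2 at 1840 CPM (4 genes). Among them, Mirlet7a-1 at 159 CPM and Mirlet7c-2 at 246 CPM share their 3′ arm as well. Both lay above Mirlet7a-2 and Mirlet7c-1, whose 3′ arms occur in 1 counted gene each. Over the 19 detected genes the means of the groups did not overlap, but in library 2 Mirlet7f-2 at 1773 CPM lay above Mir99b at 1627 CPM.

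**Figure D3:**
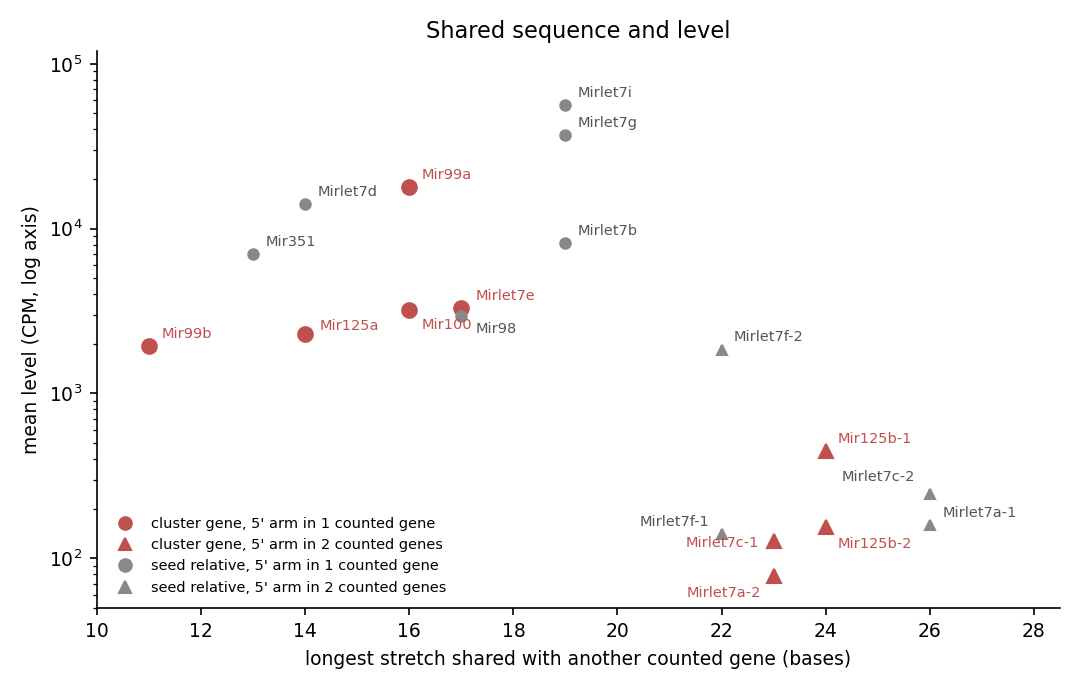
Mean level (CPM, log axis) of the 9 cluster genes and their 10 detected seed relatives against the longest stretch, in bases, that the hairpin shares with another counted gene. Circles have a 5′ arm found in 1 counted gene and triangles in 2, and triangles lie between 78.2 and 1840 CPM, circles between 1938 and 55909 CPM. The 4 relatives at 0 CPM, all with an arm in 1 counted gene, are not drawn.

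The cluster genes made up a different share of each seed group, and all of the mir-99/100 group. Of all counts of let-7 seed genes, those in the clusters held 2.93% in library 2 and 2.72% in library 1. The rest came mainly from Mirlet7i and Mirlet7g, at 55909 ± 2029 and 36830 ± 256 CPM (SD, n = 2). Of all counts with the mir-125 seed, the cluster genes held 28.6% in library 2 and 29.7% in library 1. Mir351, an X-linked gene of the Mir322-Mir503 cluster with the seed CCCUGAG, held the remaining 71.4% in library 2 and 70.3% in library 1. These shares cover only reads assigned to a gene. A read within a shared 5′ arm, as in Mirlet7c-1, Mirlet7a-2 and both Mir125b genes, would stand in the multimapping line. The arms of Mirlet7i, Mirlet7g and Mir351 occur in 1 counted gene each, so the shares of the cluster genes are uncertain.

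The mir-99/100 genes and Mir125a were lower in library 2 than in library 1, and Mirlet7e was higher. The log2 ratio of library 2 over library 1, with totals scaled by TMM, was -0.35 (95% counting interval -0.36 to -0.33) for Mir99a, -0.39 (-0.43 to -0.36) for Mir100 and -0.49 (-0.53 to -0.45) for Mir99b. It was -0.35 (-0.39 to -0.32) for Mir125a, 0.14 (0.10 to 0.17) for Mirlet7e and 0.23 (0.02 to 0.44) for Mirlet7a-2. By an exact binomial test of counts adjusted by Benjamini-Hochberg over the 335 detected genes, 4 of the 9 genes were lower in library 2 (Mir99a, Mir100, Mir99b and Mir125a), against 26.9% of all detected genes. The same test called 2 of the 9 higher in library 2 (Mirlet7e and Mirlet7a-2), against 28.7% of all. In either direction it called 6 of 9, against 55.5%, a share near that of all detected genes.

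No cluster gene passed 1.5-fold between libraries, against 15.2% of the detected genes. The median log2 ratio was -0.13 for the 9 genes and 0.03 for all detected genes, and the median size without sign was 0.23 and 0.21. Mir99b, the furthest from 0, had a larger ratio in size than 79.7% of detected genes. The test compares these libraries and covers counting error only.

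Mirlet7c-1, Mir125b-2 and Mir125b-1 were not called. Their log2 ratios were 0.0017 (-0.16 to 0.16), -0.13 (-0.28 to 0.02) and 0.02 (-0.07 to 0.11), and with DESeq2 size factors the signs of Mirlet7c-1 and Mir125b-1 turned. Mirlet7a-2 passed with an adjusted p of 0.0476 by this binomial counting test over 335 genes, from 369 counts in library 2 and 397 in library 1. The call of Mirlet7a-2 was lost with DESeq2 size factors, with strand ignored and with all genes of 1 count or more, at adjusted p of 0.0922, 0.0898 and 0.337 by the same test.

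**Figure D4:**
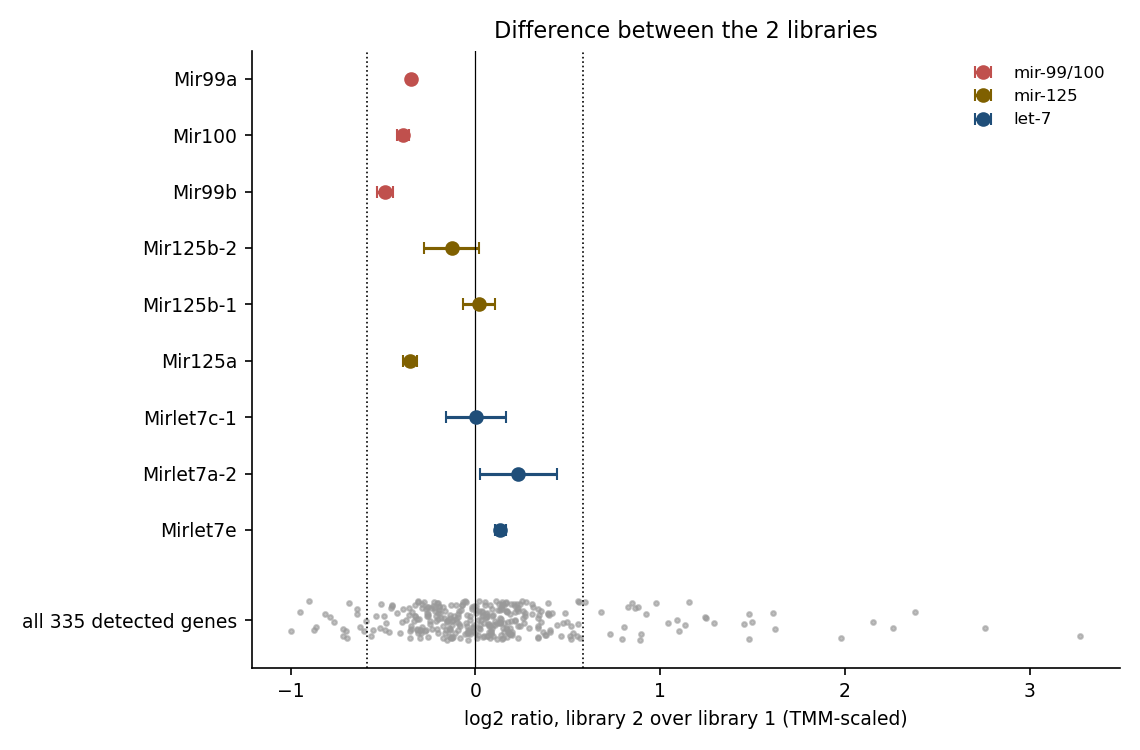
Log2 ratio of library 2 over library 1 for the 9 cluster genes, by family, with exact 95% counting intervals, above all 335 detected genes as grey points. Dotted lines mark 1.5-fold. All 3 mir-99/100 genes lie left of 0, from -0.49 to -0.35, and no cluster gene lies past a dotted line.

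Neighbours in the chromosome 17 cluster went opposite ways between the libraries. Mirlet7e over Mir99b was 2.14 (2.08 to 2.20) in library 2 and 1.39 (1.36 to 1.42) in library 1, although the hairpins lie 94 bases apart. Mirlet7e over Mir125a was 1.72 (1.68 to 1.77) in library 2 and 1.23 (1.20 to 1.25) in library 1. Mir125a over Mir99b was 1.24 (1.20 to 1.28) in library 2 and 1.13 (1.10 to 1.16) in library 1. Mirlet7e made up 48.8% of the cluster's counts in library 2 and 39.4% in library 1. In the chromosome 9 cluster, Mir100 over Mir125b-1 was 6.19 (5.90 to 6.49) in library 2 and 8.24 (7.90 to 8.595) in library 1. Of 18 pairs compared within a family or cluster, 11 had intervals that did not overlap between libraries. Pairs of other genes were not counted, and the binomial test called 55.5% of all detected genes. The 11 pairs therefore cannot be called particular to these clusters. Intervals and detection limits cover counting error only, since PCR copies were not told apart by molecular identifiers.

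Counts were also summed by family. The mir-99/100 genes had a log2 ratio of -0.36 (-0.38 to -0.35), the mir-125 genes -0.28 (-0.32 to -0.25) and the let-7 genes of the clusters 0.13 (0.10 to 0.16). Each sum rests mainly on 1 gene, with mean shares of 77.7% for Mir99a, 78.95% for Mir125a and 94.1% for Mirlet7e. Mir125b-1, Mir125b-2 and Mirlet7c-1 were not called on their own. The let-7 seed genes outside the clusters were at 0.02 (0.02 to 0.03), with 3 called lower, 3 called higher and 3 not called of 9 detected. Mir351 was at -0.21 (-0.23 to -0.19).

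Markers of other cell types also differed between the libraries. Endothelial Mir126a and Mir126b, of which 1 of 2 was detected, held 2.19% of counts in library 2 and 2.95% in library 1, a log2 ratio of -0.45 (-0.46 to -0.44). Connective tissue genes, 4 of 5 detected, held 0.424% in library 2 and 0.542% in library 1, at -0.38 (-0.40 to -0.35). Mir214 at -0.43 and Mir140 at -0.29 gave nearly all of these counts. Mir199b was at -0.23 (-0.45 to -0.01), and the interval of Mir199a-2 at -0.07 (-0.32 to 0.18) covered both signs. Blood genes, of which the 4 matched of 5 listed were detected, held 0.0398% in library 2 and 0.0589% in library 1, and they did not go one way. The white-cell genes Mir223 and Mir142 were at -0.87 (-0.99 to -0.75) and -0.79 (-0.96 to -0.62), whereas the red-cell genes Mir451a and Mir144 were at 0.40 (0.19 to 0.60) and -0.09 (-0.47 to 0.28). Smooth muscle genes, 2 of 2 detected, held 2.91% in library 2 and 2.55% in library 1. Mir143 gave nearly all of these counts, at 0.17 (0.16 to 0.18), and Mir145a went the other way at -0.12 (-0.20 to -0.04). The muscle list held 12.1% in library 2 and 13.1% in library 1, nearly all from Mir206, at -0.14 (-0.14 to -0.13). Mir499 at -0.33 and Mir208b at -0.60 were also lower in library 2, whereas Mir486 was higher at 0.22 (0.03 to 0.42). The intervals of Mir1a-1, Mir1a-2, Mir133a-1 and Mir133b covered both signs. The liver gene Mir122 was at 2.26 (2.16 to 2.37). Of the detected neural genes, Mir338 was at -0.10 (-0.20 to 0.0033) and Mir219a-2 at 1.61 (0.60 to 2.72), from 6.69 CPM in library 2 and 2.15 CPM in library 1. The undetected Mir9-3 had 2.31 CPM in library 2 and 0 CPM in library 1. The part of these cell types in the ratios of the cluster genes was not tested, and with 1 numbered female per library the animal, dissection and library preparation cannot be told apart.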

How the data were processed

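Small RNA below 30 bases from gastrocnemius was sequenced in 2 libraries. The authors deposited raw counts per gene on mm10, per the labels, with GENCODE M21 named in notes beside the tables. Which aligner and counter made them is not given in the sources used here. The own-strand column was used, and the 4 lines that name no gene (multimapping, unmapped, no feature, ambiguous) stayed out of totals. Genes held 51.1% of reads in library 2 and 53.4% in library 1, and those lines the rest, of which multimapping reads were 37.6% and 36.9%, unmapped reads 9.26% and 8.03% and reads on no feature 2.09% and 1.70% of all reads in libraries 2 and 1. All 2202 identifiers matched GENCODE M21. RefSeq (GRCm38.p6, which is mm10) gave mature sequences for 9 of 9 cluster genes and hairpins for 7. Shared stretches were exact matches between annotated transcripts.

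CPM was taken over gene counts. Ratios used TMM totals (edgeR 4.0.16, R 4.3.3) and an exact two-sided binomial test with Benjamini-Hochberg adjustment, threshold 0.05, over 335 genes, checked on simulated data. The smallest adjusted p-values underflowed and are not printed. Intervals are exact at 95%. Python 3.11.15 and scipy 1.17.1 were used. Seed relatives, marker genes and the gene nearest in level were named by rule, but members and lists were chosen with earlier results of these data known. Alternatives were unstranded counts, all reads as the denominator, DESeq2 1.42.0 size factors, plain totals, other detection and stretch limits, and each library alone.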

Additional observations from a re-analysis of the deposited data

Results flagged for a closer look

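The multimapping line and the opposite strand of Gm25927 held signal above the 3 counts that a count of 0 allows. The multimapping line held 37.6% of reads in library 2 and 36.9% in library 1. On the strand opposite Gm25927 lay 15079 counts in library 2 and 17361 in library 1. That strand is the own strand of Mirlet7e, which had the same numbers, so they add nothing to the own-strand gene counts.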

How the results depend on the processing

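With strand ignored, Mirlet7e fell to 0 CPM and so did its ratios over Mirlet7c-1, Mirlet7a-2, Mir99b and Mir125a. The Mir99b cluster then held 0.481% of gene counts, the let-7 genes 0.0234% and the mir-125 genes 0.329%. Over all reads instead of gene reads, the shares fell to 1.54% for the 9 genes, 0.953%, 0.196% and 0.393% for the Mir99a, Mir100 and Mir99b clusters, and 1.21%, 0.183% and 0.151% for the mir-99/100, let-7 and mir-125 genes. A stretch of 20 bases or more was shared by 4 genes, as at 18 bases, and one of 24 bases by 2.

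Cluster genes called higher in library 2 numbered 1 with DESeq2 size factors or with genes of 1 count or more, against 2. With strand ignored the number was 0, but there Mirlet7e had no count and so was not tested. The adjusted p of Mirlet7a-2 ranged over its alternatives up to 0.337. The log2 ratio of Mirlet7c-1 was -0.0299, -0.0242 and -0.0681 with DESeq2 size factors, strand ignored and genes of 1 count or more, and that of Mir125b-1 was -0.0112, -0.0056 and -0.0494, where the cause was not tested. None of these 6 values was called. Mir125b-2 was called lower at -0.20 when genes of 1 count or more entered. Among those 740 genes, 118 were called lower, 77 higher and 198 passed 1.5-fold, against 90, 96 and 51 of 335. A gene with 0 counts in a library had no ratio, so it could enter none of these numbers. Whatever the direction, 198 of the 740 genes were called. At 10 CPM or more, 19 of 254 passed 1.5-fold. DESeq2 size factors gave 105 lower and 81 higher. The ratios of Mir99a, Mir100, Mir99b and Mir125a kept their direction and call under all 5 alternatives. Either library alone gave all 9 genes as detected. No paired analysis was possible because there is 1 group.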
